A study of Danio rerio with 9 samples.

Results

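Transcripts of neutrophils were examined in thyroid tumors of adult transgenic zebrafish through 10 genes: the granule genes mpx, lyz and npsn, the receptor genes cxcr1, cxcr2 and csf3r, the oxidase subunit ncf1, the leukotriene gene alox5ap, and lect2l and nccrp1. Members were found by their symbol, which matched 9 of the 27158 genes in the table. The symbol cxcr1 matched no row. The row whose gene ID carries that name in a gene name table is listed in the file under a clone symbol, and its values are given apart from the 9.

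Tumors driven by human CCDC6-RET, a fusion of the receptor tyrosine kinase RET, were compared with tumors driven by BRAF(V600E), a mutant BRAF kinase that is always active. In both lines the zebrafish thyroglobulin promoter drove the oncogene, so that the transgene was directed to thyrocytes and not to neutrophils. CCDC6-RET was injected into fish with a tg:TdTomato thyroid reporter, whereas the line with BRAF(V600E) had been made for an earlier study. A p53 mutation was present in the BRAF(V600E) fish observed for tumor onset, and its presence in the sequenced fish is not given in the labels. Lesions were harvested once visible, and RNA was sequenced from CCDC6-RET tumors 2, 3, 5 and 6 (n = 4) and from BRAF(V600E) tumors 1, 2, 3, 6 and 7 (n = 5). Library totals lay between 8662544 and 13596477 counts in CCDC6-RET tumors and between 10656967 and 13354953 counts in BRAF(V600E) tumors. Whether each tumor came from its own fish is not stated, and p-values therefore reflect only the spread among these samples. Age, reporter, p53 state, dissection and sequencing run cannot be told apart from the oncogene.

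Neutrophils are short-lived phagocytes that store antimicrobial enzymes in granules and leave the blood along chemokine gradients. The growth factor Csf3 drives their production through its receptor Csf3r, and Cxcl8 family chemokines draw them into inflamed tissue and tumors through Cxcr1 and Cxcr2. In zebrafish, mpx and lyz are the genes whose promoters are used to mark living neutrophils. In bulk RNA, fewer cells of a type and less RNA per cell cannot be told apart.

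The granule genes and csf3r had at most 21 counts in any CCDC6-RET tumor and at least 29 in every BRAF(V600E) tumor, whereas the levels of nccrp1 overlapped between the groups. Of the 9 members found, 8 passed a filter on low counts, and 7 of these were lower in CCDC6-RET tumors by edgeR's quasi-likelihood test with Benjamini-Hochberg adjustment over 18453 genes. None was higher, and nccrp1 was not called. The groups did not overlap for the same 7 genes. Differences were widespread between these tumors: 38.2% of all tested genes were called lower and 33.9% higher, and 35.5% did not overlap with CCDC6-RET at the low end. Scaled on ribosomal protein genes, 8904 genes were lower and 3085 higher, against 7044 and 6255 here, and the same count of 7 members was lower. The members' median log2 fold change was −5.09, against −0.09 over all tested genes. Counts of mpx, lyz, csf3r and lect2l were at most 6 in any CCDC6-RET tumor. These genes thus passed the filter, with its minimum count of 10, through the BRAF(V600E) tumors alone. Genes at such levels could enter the test only if higher in BRAF(V600E), so the count of 7 and the median depend partly on the filter. With 7 and 9 counts in CCDC6-RET tumors 2 and 6, npsn also needed the BRAF(V600E) tumors to pass. Expression is given as counts per 1000000 (CPM) after scaling of library sizes by the trimmed mean of M values, and a negative log2 fold change means lower expression in CCDC6-RET than in BRAF(V600E) tumors.

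**Figure D1:**
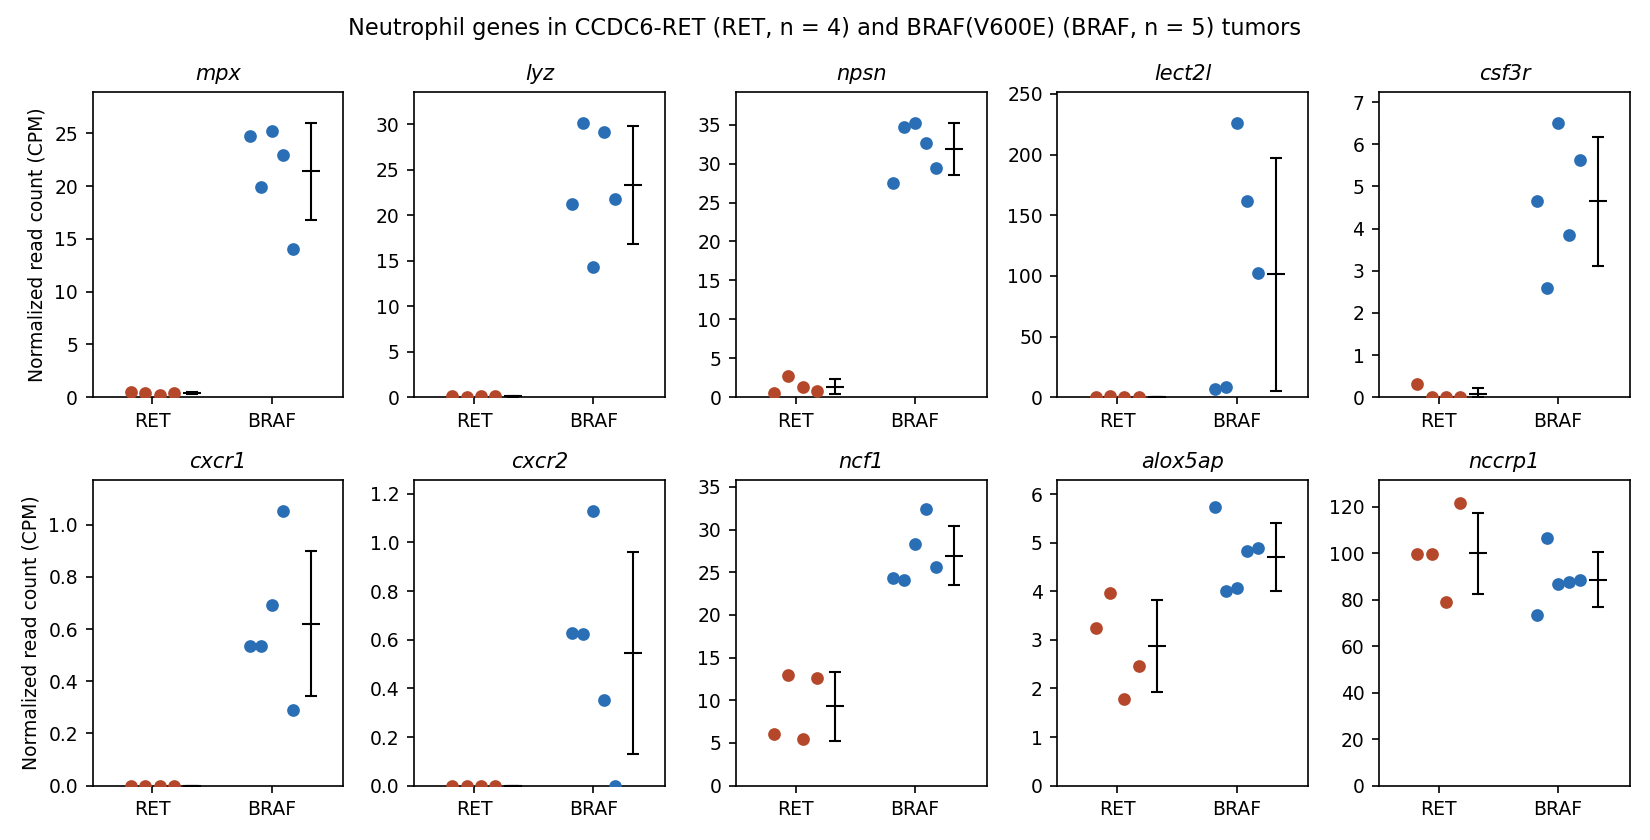
Normalized read count in CPM (vertical axis, linear and different for each gene) of the 9 neutrophil genes found by symbol and of the row matched to cxcr1 by gene ID, in CCDC6-RET (RET, red, n = 4) and BRAF(V600E) (BRAF, blue, n = 5) tumors. Each point is 1 library, and black marks give the mean and SD, drawn down to 0 at most. The groups are apart for 8 of the 10 genes and overlap for cxcr2 and nccrp1.

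The gene mpx encodes myeloperoxidase, the heme enzyme of primary granules that makes hypochlorous acid. It had 0.452, 0.384, 0.243 and 0.380 CPM in CCDC6-RET tumors 2, 3, 5 and 6, against 24.8, 19.96, 25.2, 23.0 and 14.1 CPM for BRAF(V600E) tumors 1, 2, 3, 6 and 7. All CCDC6-RET tumors were low, with 3 to 6 counts each, and no tumor of either group approached the other group. The means were 0.365 ± 0.0876 CPM in CCDC6-RET and 21.4 ± 4.59 CPM in BRAF(V600E) tumors (SD, n = 4 and 5), a log2 fold change of −5.84 ± 0.29 (SE) with an edgeR adjusted p of 9.88e-07. The gene lies at chr10:7815556-7827254 (GRCz10), and no other gene model in the table overlaps it.

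The gene lyz encodes lysozyme, which cuts bacterial cell walls. CCDC6-RET tumors 2, 3, 5 and 6 had 0.0753, 0, 0.162 and 0.0950 CPM, while BRAF(V600E) tumors 1, 2, 3, 6 and 7 had 21.2, 30.1, 14.3, 29.1 and 21.7 CPM. Over each group, 4 counts in CCDC6-RET tumors stood against 1453 in BRAF(V600E) tumors. Pooled and scaled, lyz was 258-fold higher in BRAF(V600E), with an exact 95% interval of 100.5 to 948 that covers counting error only. The fitted log2 fold change was −7.85 ± 0.45 (SE, edgeR adjusted p = 1.48e-06). The gene lies at chr24:23890689-23893626 with no overlapping model.

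The gene npsn encodes nephrosin, an astacin-type metalloprotease of fish granulocytes. It was detected in all CCDC6-RET tumors, at 0.527, 2.69, 1.30 and 0.855 CPM in tumors 2, 3, 5 and 6, against 27.5, 34.7, 35.2, 32.7 and 29.4 CPM for BRAF(V600E) tumors 1, 2, 3, 6 and 7. CCDC6-RET tumor 3 was the highest of its group and still below every BRAF(V600E) tumor. The log2 fold change was −4.62 ± 0.41 (SE, edgeR adjusted p = 1.01e-05). The gene, at chr7:38382223-38388219, lies within the span of slc7a9, a model that was higher in CCDC6-RET tumors (log2 fold change 2.25 ± 0.43, edgeR adjusted p = 0.00095). Whether strand was used in counting is not stated, and the share of slc7a9 reads counted under npsn was not tested.

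Summed, mpx, lyz and npsn reached 1.05 to 3.08 CPM in CCDC6-RET tumors and 65.2 to 84.8 CPM in BRAF(V600E) tumors. Among BRAF(V600E) tumors, mpx and lyz varied somewhat more than the median gene and npsn less. The coefficient of variation was 21.4% for mpx, 27.8% for lyz and 10.5% for npsn, against a median of 12.8% over the 10790 tested genes with a mean of 10 CPM or more in that group.

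Among the receptors, csf3r, the receptor of granulocyte colony-stimulating factor, passed the filter on low counts. It had 0.301 CPM in CCDC6-RET tumor 2 and 0 in tumors 3, 5 and 6, against 4.65, 2.58, 6.50, 3.85 and 5.62 CPM in BRAF(V600E) tumors 1, 2, 3, 6 and 7. All 4 counts of the CCDC6-RET group came from 1 library. Against the 288 counts in BRAF(V600E) tumors the log2 fold change was −5.56 ± 0.77 (SE, edgeR adjusted p = 0.000144). Without CCDC6-RET tumor 2 no count remained in that group, and csf3r was then at least 47.6-fold lower there, taking 3 counts over the remaining libraries as the most that a count of 0 allows. The gene lies at chr16:3207375-3230290.

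The Cxcl8 receptor genes were sparse. No read of cxcr2 was counted in any CCDC6-RET tumor, whereas BRAF(V600E) tumors 1, 2, 3, 6 and 7 had 7, 7, 13, 5 and 0 counts. BRAF(V600E) tumor 7 thus shared the value of the CCDC6-RET group. The gene did not pass the filter on low counts. At the floor of 3 counts over the group, 0.0683 CPM, cxcr2 was at least 7.57-fold lower in CCDC6-RET tumors. Fitted without the filter its edgeR adjusted p was 0.0155, and DESeq2 gave an adjusted p of 0.00222.

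The row matched to cxcr1 by gene ID was as sparse. It had no count in CCDC6-RET tumors and 6, 6, 8, 15 and 4 counts in BRAF(V600E) tumors 1, 2, 3, 6 and 7, at most 1.05 CPM. Every BRAF(V600E) tumor was above every CCDC6-RET tumor, and the gene was at least 9.23-fold lower in CCDC6-RET at the same floor. It also failed the filter, and its adjusted p was 2.41e-05 with DESeq2 and 0.00123 with edgeR and no filter. The cxcr2 row lies at chr9:48410779-48411802 and the other at chr9:48390636-48391727. Which of these neighbors is called cxcr1 differs between the sources used here, so the names may be exchanged while the values apply to the positions given.

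The oxidase subunit ncf1 and the leukotriene gene alox5ap had smaller fold changes than the granule genes. Ncf1, known as p47phox, organizes the phagocyte NADPH oxidase that produces superoxide, and macrophages use it too. It had 6.10, 12.9, 5.43 and 12.6 CPM in CCDC6-RET tumors 2, 3, 5 and 6, against 24.3, 24.1, 28.3, 32.4 and 25.6 CPM for BRAF(V600E) tumors 1, 2, 3, 6 and 7. CCDC6-RET tumors fell into a lower and a higher pair, and both pairs were below all BRAF(V600E) tumors. Means were 9.28 ± 4.07 CPM in CCDC6-RET and 26.9 ± 3.47 CPM in BRAF(V600E) (SD, n = 4 and 5), and the log2 fold change was −1.54 ± 0.29 (SE, edgeR adjusted p = 0.000891). The gene lies at chr5:60747820-60760976.

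Alox5ap, the 5-lipoxygenase activating protein, presents arachidonic acid to 5-lipoxygenase at the start of leukotriene synthesis. The gene had 3.24, 3.97, 1.78 and 2.47 CPM in CCDC6-RET tumors 2, 3, 5 and 6, while BRAF(V600E) tumors 1, 2, 3, 6 and 7 had 5.73, 4.01, 4.08, 4.84 and 4.89 CPM. The highest CCDC6-RET tumor and the lowest BRAF(V600E) tumor all but met. The log2 fold change of −0.72 ± 0.28 (SE) had an edgeR adjusted p of 0.0385, and this call was lost when any of CCDC6-RET tumors 2, 5 and 6 or BRAF(V600E) tumors 1, 2, 6 and 7 was left out, with adjusted p between 0.0553 and 0.0948. It was also lost without the filter on low counts (edgeR adjusted p = 0.0579). The model, at chr10:36514805-36628558, spans nipblb entirely and part of slc1a3b, so reads may be shared among them. Nipblb averaged 106.8 CPM in CCDC6-RET tumors and 104.1 CPM in BRAF(V600E) tumors and was not called (edgeR adjusted p = 0.742).

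The gene lect2l, a relative of the leukocyte chemotactic factor gene LECT2 that is used as a neutrophil marker in zebrafish, had the most negative fold change of the members and the widest spread. It was at 0.641 CPM in CCDC6-RET tumor 3 and at 0 in tumors 2, 5 and 6. BRAF(V600E) tumors 1, 2, 3, 6 and 7 had 6.71, 8.56, 226, 162 and 102 CPM. BRAF(V600E) tumors 1 and 2 were therefore more than 10 times below the other BRAF(V600E) tumors, although mpx, lyz and npsn summed to 73.5 and 84.8 CPM in the same tumors, within the range of the group. The log2 fold change was −9.62 ± 1.68 (SE, edgeR adjusted p = 0.00059). Pooled and scaled, lect2l was 922-fold higher in BRAF(V600E), with an exact 95% interval of 395 to 2841 that covers counting error only. CCDC6-RET tumor 3 held all reads of its group, and leaving it out for that reason gives a bound of at least 1264-fold at the floor of 3 counts. Both values rest mostly on BRAF(V600E) tumors 3, 6 and 7. Among BRAF(V600E) tumors the coefficient of variation was 94.8%, reached by 39 of the 10790 genes compared (0.361%). The gene lies at chr14:36545210-36546749.

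**Figure D2:**
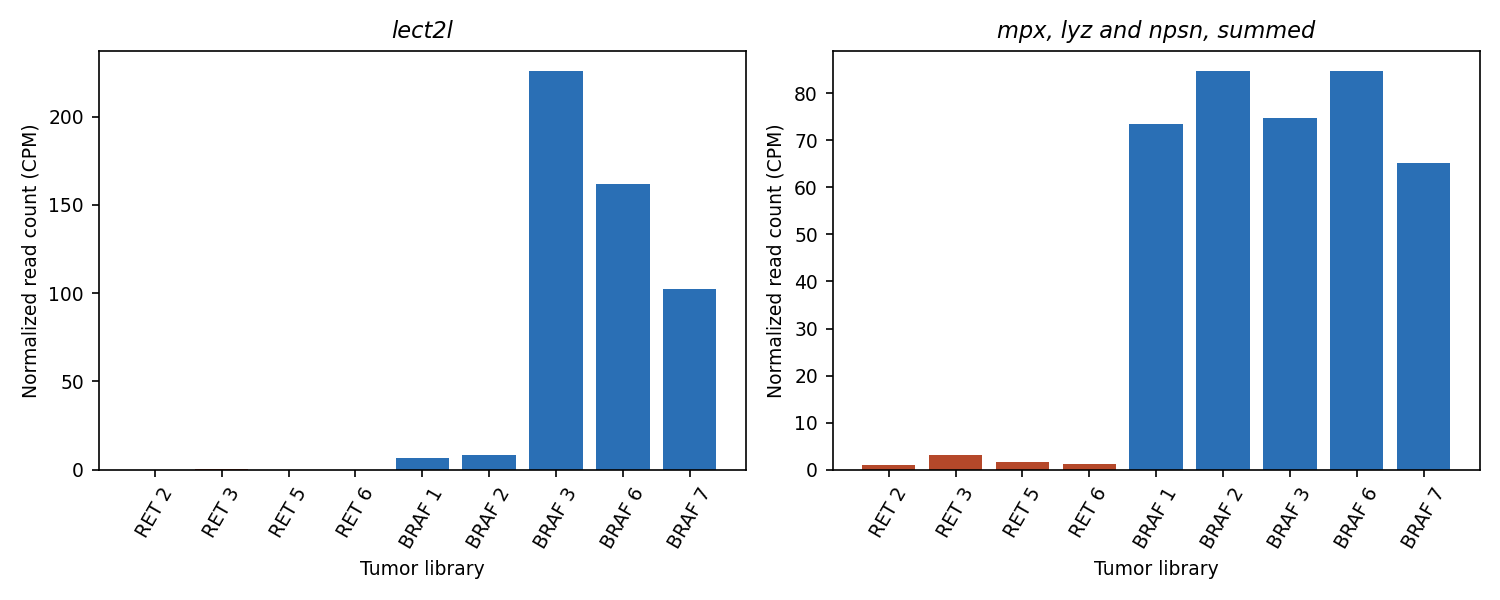
Normalized read count in CPM (vertical axes from 0) of lect2l (left) and of mpx, lyz and npsn summed (right) in each tumor library, CCDC6-RET (RET) in red and BRAF(V600E) (BRAF) in blue. In BRAF(V600E) tumors lect2l ran from 6.71 to 226 CPM, whereas the summed granule genes stayed between 65.2 and 84.8 CPM.

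Genes that followed lect2l over the 5 BRAF(V600E) tumors were ranked by the root mean square difference of centered log2 CPM, a ranking made after these values were seen. Leaving out clone symbols, the closest genes were slc24a2 (difference 0.417), leap2 (0.692), fgfbp2a (0.883) and gpnmb (0.956). The antimicrobial peptide gene leap2 had 0.151, 0.256, 0.162 and 0 CPM in CCDC6-RET tumors 2, 3, 5 and 6, while BRAF(V600E) tumors 1, 2, 3, 6 and 7 had 43.1, 44.8, 447, 328 and 282 CPM. Its low values in BRAF(V600E) tumors 1 and 2 follow from the ranking, while the near absence in CCDC6-RET, shared with lect2l, was not part of it. Fgfbp2a (log2 fold change −11.2, edgeR adjusted p = 6.26e-05) and gpnmb (−4.48, 0.00135) were lower too. The closest gene, slc24a2, was not called (−1.58 ± 0.94 SE, edgeR adjusted p = 0.157) and had 1.13 to 6.08 CPM in CCDC6-RET tumors. The summed level of the thyroid list moved the other way among BRAF(V600E) tumors 1, 2, 3, 6 and 7, at 21469, 13479, 5366, 2510 and 7220 CPM. Nearly all of this sum was the thyroglobulin gene tg, at 21227.5, 13344.5, 5249.5, 2438.6 and 7014.2 CPM in the same tumors. The part of tissue makeup in the spread of lect2l was not tested.

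A further 3 rows of the table have LECT2 as their human ortholog. Of these, a row named LECT2 (1 of many) had 31.4 to 69.2 CPM in CCDC6-RET tumors and 29.0 to 45.8 CPM in BRAF(V600E) tumors and was not called (log2 fold change 0.31 ± 0.24, edgeR adjusted p = 0.275). The row si:ch1073-204b8.1 had no count in CCDC6-RET tumors and 174 counts in BRAF(V600E) tumors (edgeR adjusted p = 0.00347). Its level was 8.05 CPM in BRAF(V600E) tumor 1, which was lowest of its group for lect2l, and 0.980 to 3.28 CPM in the other BRAF(V600E) tumors. Another LECT2 row held 1 count in all. Reads that fit several of these relatives may have been counted under any of them.

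The gene nccrp1 encodes a membrane protein first described on nonspecific cytotoxic cells of fish, and it did not follow the other members. It had 99.7, 99.7, 78.9 and 121 CPM in CCDC6-RET tumors 2, 3, 5 and 6, while BRAF(V600E) tumors 1, 2, 3, 6 and 7 had 73.3, 106, 86.9, 87.5 and 88.4 CPM. The groups overlapped, and the log2 fold change was 0.17 ± 0.15 (SE, edgeR adjusted p = 0.311). The gene lies at chr5:36250497-36254402. With 4353 and 5477 counts in CCDC6-RET and BRAF(V600E) tumors, nccrp1 was counted amply in the libraries that had almost no mpx or lyz.

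Other leukocyte genes were also lower in CCDC6-RET tumors, and the members were therefore set against them. Of 13 tested pan-leukocyte genes 10 were lower, 1 was higher (arhgdig) and 2 were not called, with a median log2 fold change of −3.10. Of 18 macrophage genes 11 were lower and 7 were not called, with a median of −1.52. Per 100 counts of the pan-leukocyte list without arhgdig, mpx, lyz and npsn together had 0.946 to 1.25 counts in CCDC6-RET tumors and 8.73 to 10.8 in BRAF(V600E) tumors. Per 100 counts of the macrophage list without cd74a and cd74b they had 0.724 to 3.70 in CCDC6-RET tumors and 17.1 to 22.2 in BRAF(V600E) tumors. Over the CCDC6-RET tumors together the genes left out made up most of the counts of their lists, and they were left out after the values were seen. In CCDC6-RET tumor 6, cd74a and cd74b had 82.5 and 94.0 of the 360 CPM of their list, which is not most. They weighed more in BRAF(V600E) tumors, with means of 2625 and 1651 of 4678 CPM.

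When libraries were scaled on these leukocyte counts in place of all genes, 5 members remained lower. How many of all genes were lower with these scalings was not counted, so this 5 has no background share beside it. With the pan-leukocyte genes the log2 fold change was −3.34 for mpx (edgeR adjusted p = 1.34e-05), −5.49 for lyz (7.34e-07), −2.32 for npsn (4.85e-05), −3.10 for csf3r (0.00376) and −7.32 for lect2l (0.00247). With the macrophage genes it was −3.88 for mpx (edgeR adjusted p = 4.05e-07), −5.97 for lyz (1.64e-10), −2.55 for npsn (0.0001), −3.72 for csf3r (2.14e-05) and −7.74 for lect2l (0.00281). These 5 genes thus differed between the groups by more than the summed counts of these lists did. Of them, mpx, lyz, csf3r and lect2l passed the filter on low counts through the BRAF(V600E) tumors alone, and npsn needed those tumors too. That these 5 were lower therefore depends partly on the filter. In CCDC6-RET tumors, hcls1 (38.7 CPM) and itgb2 (26.6 CPM) had the highest means of the pan-leukocyte genes used. With all genes as the scale their log2 fold changes were −1.17 and −1.05 (itgb2 not called), against −3.68 for ptprc. The T and NK cell genes had a median of −4.63, with il2rb at −9.42, so falls of this size were not particular to the members.

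The other tested members were not lower with this scaling. The log2 fold change of ncf1 became 0.87 with the pan-leukocyte genes (edgeR adjusted p = 0.0257) and 0.35 with the macrophage genes (0.542), so that no fall of ncf1 beyond that of these leukocyte counts was called. The values for alox5ap were 1.77 (edgeR adjusted p = 0.00157) and 1.26 (0.0457), and those for nccrp1 were 2.71 (5.57e-07) and 2.22 (1.02e-05). The scaling moved the median of all genes by 2.51 with the pan-leukocyte genes and by 2.12 with the macrophage genes. With the full lists, npsn lost its call under macrophage scaling (log2 fold change −0.92, edgeR adjusted p = 0.147) and ncf1 under pan-leukocyte scaling (−0.56, 0.101), while mpx, lyz, csf3r and lect2l kept theirs under both.

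**Figure D3:**
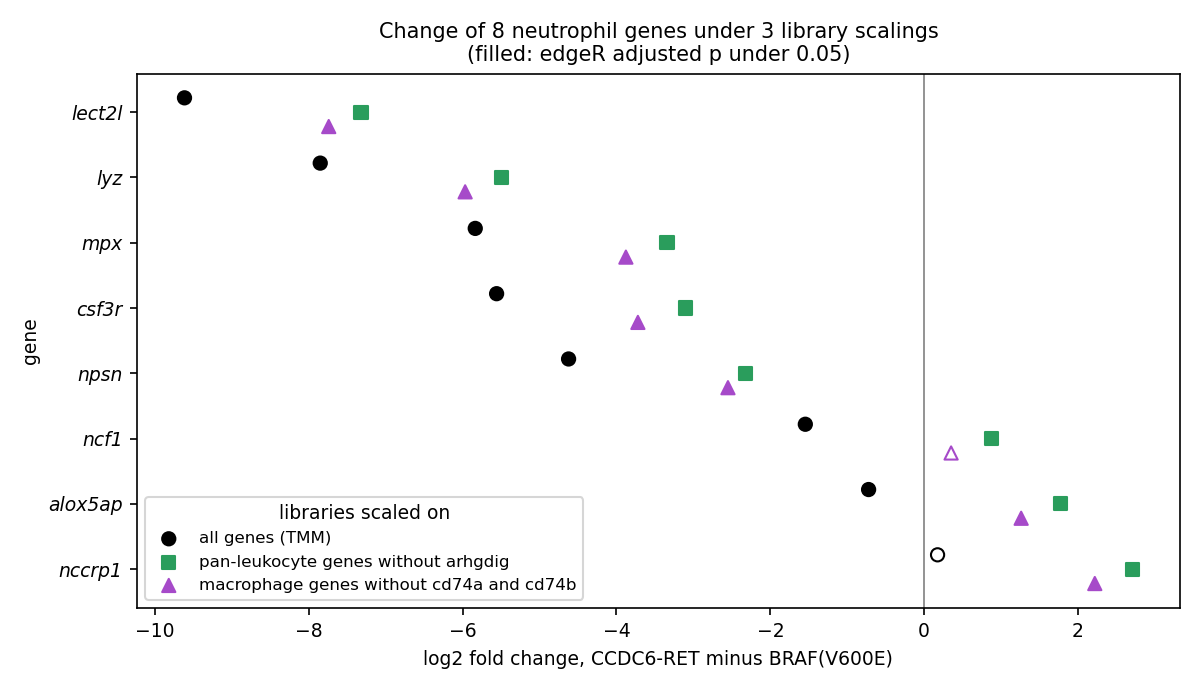
Log2 fold change (horizontal axis, CCDC6-RET minus BRAF(V600E)) of the 8 tested neutrophil genes with libraries scaled on all genes (black circles), on pan-leukocyte genes without arhgdig (green squares) and on macrophage genes without cd74a and cd74b (purple triangles). Filled marks have an edgeR adjusted p under 0.05. The upper 5 genes stay left of 0 under all 3 scalings, whereas ncf1 and alox5ap move to its right.

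Other genes of granulocytes and of the respiratory burst were mixed. Of 24 tested, 14 were lower, 7 higher and 3 not called, with a median log2 fold change of −1.68. Other oxidase genes were lower, as ncf1 was: the membrane subunit cybb (−2.35 ± 0.36 SE, edgeR adjusted p = 0.000256), the cytosolic ncf4 (−1.64 ± 0.55, 0.0212) and the GTPase rac2 (−1.72 ± 0.24, 0.000161). Cyba, the partner of Cybb in the membrane, went the other way (0.41 ± 0.11, edgeR adjusted p = 0.00625), a direction that turned to −0.17 when libraries were scaled on ribosomal protein genes.

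Leukotriene genes around alox5ap did not move together. The 5-lipoxygenase gene alox5a fell to 1.82 CPM in CCDC6-RET tumors, against 15.2 CPM in BRAF(V600E) tumors (log2 fold change −3.00 ± 0.64 SE, edgeR adjusted p = 0.00194), while its relative alox5b.1 (−0.35 ± 0.58, 0.6) and the leukotriene C4 synthase gene ltc4s (−1.04 ± 0.70, 0.201) were not called. The leukotriene A4 hydrolase gene lta4h averaged 958 CPM in CCDC6-RET tumors and 33.6 CPM in BRAF(V600E) tumors (4.83 ± 0.37, edgeR adjusted p = 5.25e-06). Of the leukotriene B4 receptors, ltb4r was higher (1.90 ± 0.65, edgeR adjusted p = 0.0237) and ltb4r2a lower (−6.09 ± 0.50, 6.89e-06). The groups overlapped for ltb4r, with 1.05 CPM in CCDC6-RET tumor 2, 22.1 CPM in CCDC6-RET tumor 5 and 2.05 to 3.22 CPM in BRAF(V600E) tumors.

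Other genes of the list with large changes were fpr1, which encodes a receptor for formyl peptides of bacteria, and hp, which encodes haptoglobin. The mean of fpr1 was 1.03 CPM in CCDC6-RET tumors, against 23.4 CPM in BRAF(V600E) tumors (log2 fold change −4.52 ± 0.46 SE, edgeR adjusted p = 2.24e-05). For hp the means were 0.325 CPM in CCDC6-RET and 11.9 CPM in BRAF(V600E) tumors (−5.24 ± 0.35, edgeR adjusted p = 2.52e-06). The metalloprotease gene mmp9, which neutrophils store in granules and many other cells make, was not called (log2 fold change −0.22 ± 0.86 SE, edgeR adjusted p = 0.824).

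All 12 tested genes of the ligand list were lower in CCDC6-RET tumors, with a median log2 fold change of −3.27, where 38.2% of all tested genes were lower. Of the 12, csf3a, csf1a, csf1b and kitlgb had 2, 0, 4 and 1 counts in CCDC6-RET tumors. They could enter the test only if higher in BRAF(V600E), so the count and the median depend partly on the filter. Not all genes of the list encode ligands of granulocytes and their progenitors, since il34, csf1a and csf1b encode ligands of the macrophage receptor Csf1r. Csf1a, at 0 in CCDC6-RET tumors, leaves the median the same at its bound. The Csf3r ligand gene csf3a had 2 counts in CCDC6-RET tumors and 197 in BRAF(V600E) tumors (−5.81 ± 0.64 SE, edgeR adjusted p = 3.49e-05). The Cxcl8 genes cxcl8a (−2.08 ± 0.67, edgeR adjusted p = 0.0175) and cxcl8b.1 (−2.80 ± 0.62, 0.00243) were lower too. The other Csf3 gene, csf3b, was too sparse to be tested and overlapped between the groups, with 16 counts in CCDC6-RET tumors and 18 in BRAF(V600E) tumors. Cxcl12a, which holds neutrophils in hematopoietic tissue through Cxcr4, averaged 60.4 CPM in CCDC6-RET tumors and 614 CPM in BRAF(V600E) tumors (−3.35 ± 0.38, edgeR adjusted p = 4.41e-05).

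Of 17 tested chemokine receptor rows 15 were lower and 2 higher (cxcr5 and ccr2), with a median log2 fold change of −3.12, the same with ccr7 and xcr1a.1, at 0 in CCDC6-RET tumors, at their bounds. These 2 genes and ccr6b, with 3 counts in CCDC6-RET tumors, could likewise enter the test only if higher in BRAF(V600E). The Cxcl12 receptor gene cxcr4b averaged 21.0 CPM in CCDC6-RET tumors and 183 CPM in BRAF(V600E) tumors (−3.12 ± 0.20 SE, edgeR adjusted p = 2.14e-06). The lymphocyte and dendritic cell receptor gene ccr7 had no count in CCDC6-RET tumors and 1470 in BRAF(V600E) tumors, at least 348-fold lower at the floor of 3 counts over the group. A receptor gene of other leukocytes, ccr7, was thus low beside those of neutrophils. This did not hold for all, as cxcr5 (2.35 ± 0.28 SE, edgeR adjusted p = 5.97e-05) and ccr2 (1.47 ± 0.32, 0.00219) were higher.

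Of 12 tested myeloid transcription factor genes 9 were lower, 1 higher and 2 not called, with a median log2 fold change of −2.12. Runx3 (−3.18 ± 0.12 SE, edgeR adjusted p = 4.53e-07), ikzf1 (−4.72 ± 0.35, 4.4e-06), cebpa (−5.05 ± 0.52, 2.4e-05) and gfi1ab (−5.83 ± 0.57, 1.64e-05), all regulators of blood cell formation, were lower. Irf8, which favors macrophages over neutrophils in zebrafish, was higher in CCDC6-RET tumors (2.71 ± 0.38, edgeR adjusted p = 0.000159). The factor cebp1, expressed in zebrafish granulocytes, was not called (−0.08 ± 0.89, edgeR adjusted p = 0.943). CCDC6-RET tumors 2, 3, 5 and 6 had 0.301, 4.10, 0.324 and 0.0950 CPM of it. BRAF(V600E) tumors had 0.626 to 1.87 CPM, so the CCDC6-RET mean rests largely on tumor 3, and the others lay below every BRAF(V600E) tumor.

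**Figure D4:**
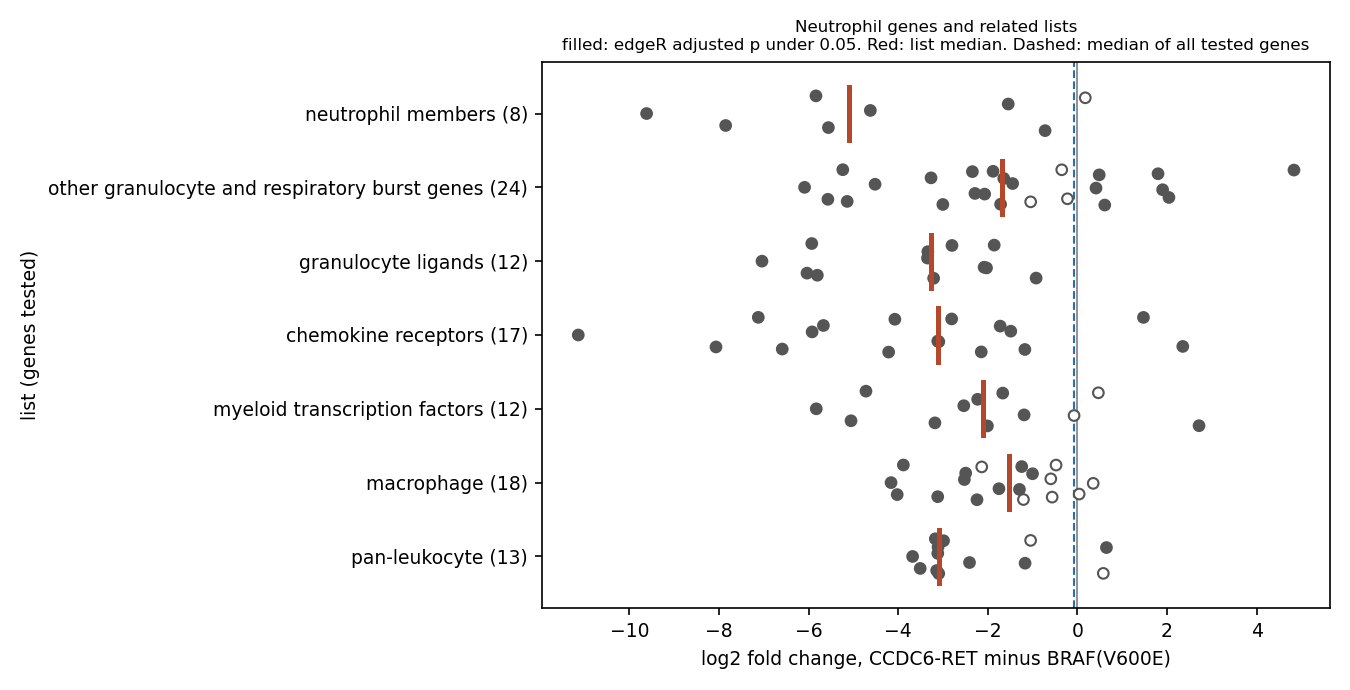
Log2 fold change (horizontal axis, CCDC6-RET minus BRAF(V600E)) of every tested gene of the neutrophil members and 6 related lists (rows, with the number tested). Filled points have an edgeR adjusted p under 0.05, red bars are list medians, and the dashed line is the median of all tested genes at −0.09. The members' median of −5.09 is the lowest of the 7, and granulocyte and respiratory burst genes lie on both sides of 0. Among lists not drawn, the medians of skeletal muscle (−8.11) and skin epithelium (−6.04) were lower still. Those of T and NK cell (−4.63) and erythroid genes (−4.36) were near the members' median.

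Leaving out clone symbols, genes were ranked by the root mean square difference of centered log2 CPM from the members' mean profile over the 9 libraries. The closest were kitlgb (0.187), gpr55a (0.228), gramd2a (0.232), lmx1bb (0.237), TSTA3 (1 of many) (0.238), grap2b (0.243), CCR8 (1 of many) (0.244) and gzmk (0.255). In BRAF(V600E) tumors TSTA3 (1 of many) and grap2b averaged 77.4 and 38.4 CPM, and the others at most 4.26 CPM. Of those others, lmx1bb, CCR8 (1 of many) and gzmk were at 0 in CCDC6-RET tumors. Likeness at such levels rests on few counts. The members themselves differed more from their mean, csf3r by 0.675 and npsn by 0.678 at the near end and nccrp1 by 1.89 and lect2l by 2.48 at the far end.

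Markers of other tissues moved with the same groups. The summed skeletal muscle list was at 23.96 to 80.4 CPM in CCDC6-RET tumors and 6951 to 23945 CPM in BRAF(V600E) tumors, with 1 of 2 myhz1.1 rows and myoz1b, both sparse and untested, at 0 in CCDC6-RET, and all 22 tested genes were lower. Erythroid genes summed to 100.1 to 927 CPM in CCDC6-RET tumors and 4858 to 16250 CPM in BRAF(V600E) tumors, with 12 of 12 lower. Of 16 skin epithelium genes 13 were lower, 6025 to 12146 CPM against 18851 to 39050 CPM in sum. T and NK cell genes (13 of 16 lower) and B cell genes (14 of 15 lower) were lower as well. The thyroid list, 9 of 11 genes higher in CCDC6-RET, summed to 14504 to 32024 CPM in CCDC6-RET tumors and 2510 to 21469 CPM in BRAF(V600E) tumors. The thyroglobulin gene tg made up most of this sum, averaging 19220 of 21757 CPM in CCDC6-RET and 9855 of 10009 CPM in BRAF(V600E) tumors. Its levels overlapped between the groups and it was not called (edgeR adjusted p = 0.141), so the sum does not show the higher genes. The part of these tissues and of blood in the neutrophil differences was not tested.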

How the data were processed

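The authors sequenced RNA of zebrafish thyroid tumors from Illumina TruSeq libraries. The submitters' processing notes name STAR 2.3, DESeq2 and GRCz10, while the study's methods name a later STAR release for these tumors, and which of them made the table is not given in the sources used here. The gene counter, annotation release and strand setting are not given in the sources used here. The deposited raw counts, whole numbers for each gene in each library, were used as given. The deposited normalized signal, log2 fold changes, test scores and p-values, which hold the authors' own comparison or its scaling, were not used.

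Counts of all 27158 genes were fitted with edgeR 4.0.16 in R 4.3.3 (filterByExpr with a minimum count of 10, TMM scaling, quasi-likelihood F test, Benjamini-Hochberg adjustment over 18453 genes, threshold 0.05), with group as the only term. Alternatives used DESeq2 1.42.0, limma 3.58.1 (voom), other scalings, no filter, a replicate block, and each library left out. A count of 0 was taken to allow 3 counts. Counting intervals are exact at 95% and cover counting error only.

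The members and lists were chosen with earlier results of these data known. Named from the other lists were, for lists on neutrophils, up to 5 genes with the smallest p and, for other cell types, up to 3 with the highest mean. Oxidase and leukotriene genes of the granulocyte list, 1 of which is not reported here, and others such as mmp9, fpr1, cxcl8a, cxcl8b.1, csf3a, irf8 and cebp1, were named for their role after values were seen. Of 244 list entries 235 matched a row. Gene spans are those of the deposited table.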

Additional observations from a re-analysis of the deposited data

Results flagged for a closer look

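In 18 groups of 4 or 5 libraries tested, the highest library stood far from the others in 2, and chance flags about 1 group in 20. These were csf3r, at 0.301 CPM in CCDC6-RET tumor 2 (4 counts) with the other CCDC6-RET tumors at 0, and lect2l, at 0.641 CPM in CCDC6-RET tumor 3 (5 counts) with the others at 0. With the other libraries tied at 0, any count in 1 library is flagged, so the chance rate does not apply to these 2.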

How the results depend on the processing

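Members called lower were 6 to 8, with none higher, over the 17 alternatives that did not scale on leukocyte or macrophage lists, and 6 or 7 when 1 library was left out. Scaling on such lists gave 4 lower and 3 higher (macrophage), 5 and 1 (pan-leukocyte), 5 and 2 (macrophage without cd74a and cd74b) and 5 and 3 (pan-leukocyte without arhgdig). The share of all genes called was not counted for these 4 scalings. The direction and call of mpx, lyz, csf3r and lect2l held under all 21 alternatives. The call of npsn held under all but scaling on the full macrophage list, and that of ncf1 under all but the 4 scalings on leukocyte and macrophage lists. The 4 also brought nccrp1 past the threshold. Under macrophage scaling the log2 fold change was 2.13 for ncf1 and 2.96 for alox5ap, and under pan-leukocyte scaling 0.28 for alox5ap. Without cd74a and cd74b the macrophage values were 0.35 and 1.26, and without arhgdig the pan-leukocyte values were 0.87 and 1.77, both sets added after seeing the data. These scalings moved the median of all genes by 3.86 (macrophage) and 1.0 (pan-leukocyte), since the counts of the lists were lower in CCDC6-RET tumors. Library totals and ribosomal protein genes moved it by −0.18 and −0.56, and with the ribosomal protein genes 8904 genes were lower and 3085 higher, against 7044 and 6255. Same-numbered tumors did not deviate together (r of 0.033, 0.0076 and −0.041). A replicate block over the 6 libraries with shared numbers gave 6 members and 10260 genes called, with alox5ap not called (−0.43, edgeR adjusted p = 0.403). The same libraries unpaired gave 6 members and 11522 genes, with alox5ap not called either (−0.41, edgeR adjusted p = 0.292), against 13299 genes in all 9 libraries. Depth limits csf3r, cxcr1, cxcr2 and, in CCDC6-RET tumors, lyz and lect2l, where the fold depends on a few counts.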
